A study of Mus musculus with 24 samples.

Results

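Collagen VI is a matrix protein built from chains that separate genes encode. The genes Col6a1, Col6a2, Col6a3, Col6a5 and Col6a6 were found by their symbols in the array's annotation, and all 5 of 5 were present among the 19505 genes of the arrays, each with 1 probe set. Their RNA was measured on Affymetrix arrays in lungs of mice killed at 6 months of age. The labels give 4 groups of 6 planned samples each: wild-type or Marfan mice, each given either vehicle or sildenafil. Values were held by 6 wild-type vehicle arrays, 4 wild-type sildenafil arrays, 5 Marfan vehicle arrays and 5 Marfan sildenafil arrays; the other 4 arrays are titled as having failed quality control and hold none. Sildenafil, an inhibitor of the enzyme that breaks down cyclic GMP, was given in drinking water from 6 weeks of age; the labels carry this treatment text on vehicle samples too, and the group was taken from the sample titles. Marfan syndrome is an inherited disorder of connective tissue. The sources used here do not give the allele, strain or sex of the mice, or whether each array came from a separate animal, so a p-value covers the spread between arrays, which may be partly technical.

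In a collagen VI molecule the α1 and α2 chains wind into a triple helix together with a further chain, usually α3 and in some places α5 or α6. The molecules join into dimers and tetramers inside the cell and, once secreted, into beaded microfilaments. These lie close to basement membranes and around cells, where they link the surrounding fibres to receptors on the cell surface. In lung, collagen VI is found in the interstitium, the walls of airways and vessels and the pleura, and fibroblasts are a main source. Inherited defects of Col6a1, Col6a2 or Col6a3 cause muscle disease.

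In the RefSeq annotation (GRCm38.p6), Col6a2 and Col6a1 are neighbours on chromosome 10 with 0 protein-coding genes between them, Col6a6, Col6a5 and Col6a4 lie side by side on chromosome 9, and Col6a3 lies on chromosome 1. The 250 bases before the annotated starts of Col6a1, Col6a2 and Col6a3 are shown because these are the chain genes above the array background. The windows are chr10:76726045-76726294 for Col6a1, chr10:76623405-76623654 for Col6a2, and chr1:90843972-90844221 for Col6a3. Col6a2 has 2 annotated starts, and the one with the lower coordinate is shown. All are on the minus strand and are written 5′ to 3′, with capitals for matches to GGGCGG (the GC box), TGANTCA (the AP-1 site) and CCCTCC on either strand.
Col6a1: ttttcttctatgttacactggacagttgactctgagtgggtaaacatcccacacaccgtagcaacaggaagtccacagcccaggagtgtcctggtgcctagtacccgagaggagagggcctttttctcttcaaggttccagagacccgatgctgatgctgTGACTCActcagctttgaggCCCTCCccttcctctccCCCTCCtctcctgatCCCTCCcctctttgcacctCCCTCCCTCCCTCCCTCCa
Col6a2: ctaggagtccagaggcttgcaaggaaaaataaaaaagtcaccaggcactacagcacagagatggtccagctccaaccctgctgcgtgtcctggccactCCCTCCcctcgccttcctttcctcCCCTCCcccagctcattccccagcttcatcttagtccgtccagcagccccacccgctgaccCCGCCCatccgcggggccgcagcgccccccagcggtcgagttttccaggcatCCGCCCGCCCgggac
Col6a3: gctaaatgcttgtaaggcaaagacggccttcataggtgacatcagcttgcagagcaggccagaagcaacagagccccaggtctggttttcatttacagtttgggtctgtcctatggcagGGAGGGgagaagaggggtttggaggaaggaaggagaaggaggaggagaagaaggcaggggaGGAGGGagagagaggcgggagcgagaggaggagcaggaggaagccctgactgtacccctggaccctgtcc
The Col6a1 window held 7 matches to CCCTCC, of which the 4 nearest the start overlap, and 1 to TGANTCA, 90 bases before the start. The Col6a2 window held 2 to CCCTCC and 3 to GGGCGG, of which a pair overlaps, and the Col6a3 window held 2 to CCCTCC. The window of the other Col6a2 start, chr10:76623631-76623880, held 2 to CCCTCC and 1 to GGGCGG. Neither TATAAA nor CCAAT was found in any of them. Among 32851 RefSeq mouse windows of the same length, CCCTCC was present in 35.2%, GGGCGG in 32.7%, TGANTCA in 6.75%, CCAAT in 33.8% and TATAAA in 12.4%. These matches describe letters in the windows, and binding was not measured.

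All levels below are log2 values, quantile-normalized over the 20 arrays so that each array has the same distribution, and differences are in log2 units. Before that step the array medians lay between 5.32 and 6.45. Arrays of wild-type vehicle lungs were dimmer, with a median of 5.66 ± 0.19 (SD, n = 6) against 6.05 ± 0.14 (n = 4) for wild-type sildenafil, 6.03 ± 0.13 (n = 5) for Marfan vehicle and 6.06 ± 0.28 (n = 5) for Marfan sildenafil. The lung label was met by the alveolar genes Sftpc, a surfactant protein (mean 13.12), and Ager, of alveolar type 1 cells (mean 12.15), both in the brightest percent of genes. Marfan sildenafil array 9 stood apart: its fibroblast marker mean was 7.60 against 8.13 to 8.47 on the other 19 arrays, its endothelial marker mean 9.06 against 10.05 to 10.58 and its macrophage marker mean 9.61 against 7.47 to 8.58. Its cardiac muscle marker mean was 4.98 against 7.55 to 8.61. Smooth muscle and pericyte (7.24 against 7.53 to 8.28), alveolar type 1 (10.29 against 10.59 to 10.95) and adipose markers (4.30 against 4.57 to 5.75) were also under the range. Its mesothelial and alveolar type 2 marker means lay within it. The quantile-normalized differences of the collagen VI genes, the Pearson correlations between them and the list medians that include this array are also given without it. Spearman's rho and the correlations with genes of like pattern are given over all 20 arrays only. Whole lung was measured, so fewer cells that make a transcript and less transcript per cell cannot be told apart.

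Col6a1, Col6a2 and Col6a3 were expressed well above background, and Col6a5 and Col6a6 were not. On every one of the 20 arrays Col6a1 and Col6a2 were brighter than the brightest of 23 background probe sets, and Col6a3 was on 19. The deposited values lay a median of 4.47 log2 units over the background median of the same array for Col6a1, 4.62 for Col6a2 and 3.84 for Col6a3. For Col6a6 this distance was 1.19 and for Col6a5 0.43, and neither passed the brightest background probe set on any array (0 of 20). Col6a4, the remaining chain gene of the mouse family, lay 0.55 over the background median and was above its brightest probe set on 0 of 20 arrays. The mean of Col6a1 was above that of 65.4% of all genes, that of Col6a2 above 67.8% and that of Col6a3 above 56.9%.

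**Figure D1:**
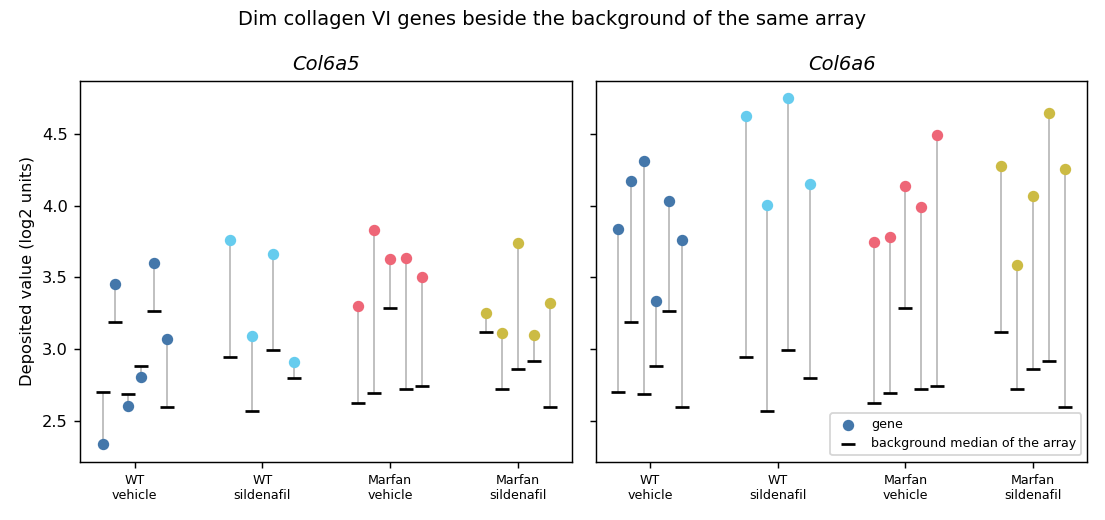
Deposited log2 values of Col6a5 and Col6a6 (coloured points) and the median of the background probe sets of the same array (black bars), 1 pair per array, by group. Col6a5 lay between 0.37 log2 units under and 1.14 over the background median, and Col6a6 between 0.46 and 1.76 over it.

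Col6a1 encodes the α1 chain, which every collagen VI molecule needs. Its values on the wild-type vehicle arrays ran from 6.39 (array 18) over a median of 6.89 to 7.07 (array 17), with a mean of 6.79 ± 0.28 (SD, n = 6). The wild-type sildenafil arrays 1, 4, 5 and 6 read 7.42, 7.28, 7.04 and 7.18, with a mean of 7.23 ± 0.16 (SD, n = 4). The Marfan vehicle arrays 20 to 24 read 7.60, 7.19, 7.45, 7.13 and 7.06, with a mean of 7.29 ± 0.23 (SD, n = 5). The wild-type vehicle group was thus the low one, and it touched each of these groups at 1 array only, at 7.04 (array 5) and at 7.06 (array 24) against its own highest value of 7.07. The Marfan sildenafil arrays 8 to 12 read 7.65, 7.42, 7.25, 7.37 and 7.17, with a mean of 7.37 ± 0.18 (SD, n = 5), and 4 of them lay within the range of the Marfan vehicle arrays. In rising order the group means were those of vehicle and then sildenafil in wild-type lungs, followed by vehicle and then sildenafil in Marfan lungs, and the last 3 differed from one another by less than the SD of any of them.

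Col6a2 encodes the α2 chain, the constant partner of α1. The wild-type vehicle arrays ran from 6.68 (array 16) over a median of 6.84 to 7.46 (array 17), with a mean of 6.95 ± 0.30 (SD, n = 6). The wild-type sildenafil arrays 1, 4, 5 and 6 read 7.32, 7.38, 7.48 and 7.42, with a mean of 7.40 ± 0.065 (SD, n = 4). The Marfan vehicle arrays 20 to 24 read 7.77, 7.49, 7.60, 7.20 and 7.24, with a mean of 7.46 ± 0.24 (SD, n = 5). Wild-type vehicle was again the low group, and the overlap came from its array 17, since its next highest value was 7.15 (array 13). The Marfan sildenafil arrays 8 to 12 read 7.71, 7.26, 7.50, 7.58 and 7.42, with a mean of 7.49 ± 0.17 (SD, n = 5), all inside the range of the Marfan vehicle arrays. The order of the group means was the same as for Col6a1. Of the 3 higher groups, wild-type sildenafil was the tightest, and the others had means within 1 SD of each other.

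Col6a3 encodes α3, the longest of the common chains, whose cleaved end circulates as endotrophin. Its wild-type vehicle values ran from 5.49 (array 16) over a median of 6.44 to 7.35 (array 17), with a mean of 6.42 ± 0.59 (SD, n = 6). This range reached past every value of the other groups at both ends. The wild-type sildenafil arrays 1, 4, 5 and 6 read 6.27, 6.74, 6.53 and 6.51, with a mean of 6.51 ± 0.19 (SD, n = 4). The Marfan vehicle arrays 20 to 24 read 7.27, 6.49, 6.69, 7.00 and 6.45, with a mean of 6.78 ± 0.35 (SD, n = 5). The Marfan sildenafil arrays 8 to 12 read 6.84, 6.28, 6.78, 6.62 and 6.88, with a mean of 6.68 ± 0.24 (SD, n = 5). All 4 groups overlapped, and no neighbours in the order of the means differed beyond their spread. The SD within groups was 0.40 for Col6a3, 0.22 for Col6a1 and 0.22 for Col6a2, against a median of 0.26 over all genes.

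**Figure D2:**
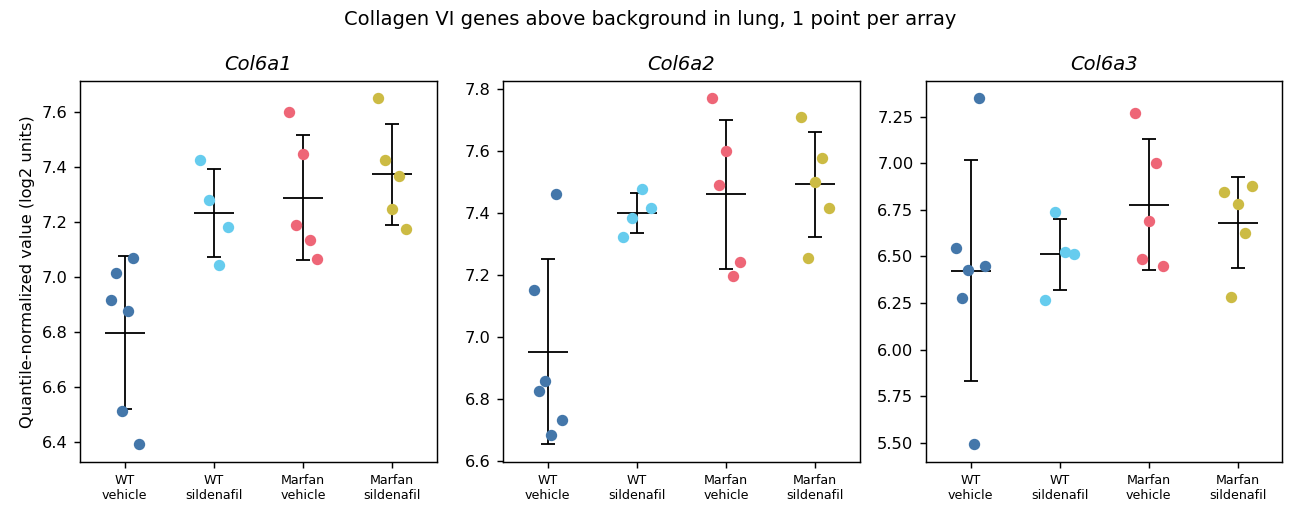
Quantile-normalized log2 values of Col6a1, Col6a2 and Col6a3 by group; each point is 1 array, the black bar is the group mean and the whiskers are 1 SD. Wild-type vehicle was the lowest group for Col6a1 (6.79) and Col6a2 (6.95), while its Col6a3 values spread from 5.49 to 7.35.

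Col6a5 and Col6a6 encode long chains that can stand in for α3. Col6a5 averaged 3.00 ± 0.43 (SD, n = 6) in wild-type vehicle, 3.39 ± 0.39 (n = 4) in wild-type sildenafil, 3.54 ± 0.19 (n = 5) in Marfan vehicle and 3.27 ± 0.35 (n = 5) in Marfan sildenafil lungs. Single arrays ran from 2.40 (wild-type vehicle array 13) to 3.83 (Marfan sildenafil array 10), and all groups overlapped. Col6a6 averaged 4.06 ± 0.35 (SD, n = 6), 4.32 ± 0.44 (n = 4), 3.98 ± 0.23 (n = 5) and 4.09 ± 0.19 (n = 5) in the same order of groups. Its lowest value was 3.41 (wild-type vehicle array 16) and its highest 4.90 (wild-type sildenafil array 5). At this distance from the background the order of the groups was not resolved for either gene.

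Marfan and wild-type lungs were first compared without the drug. Col6a2 stood 0.51 ± 0.13 (SE) log2 units higher in Marfan vehicle lungs, a ratio of 1.42, and Col6a1 0.49 ± 0.13, a ratio of 1.41. Col6a3 stood at 0.36 ± 0.22 and the dim Col6a5 at 0.54 ± 0.20, while Col6a6 stood at -0.07 ± 0.19. No member passed limma's test after Benjamini-Hochberg adjustment over all genes: the adjusted p was 0.610 for Col6a2, 0.699 for Col6a1, 0.789 for Col6a5, 0.808 for Col6a3 and 0.974 for Col6a6. The test called 0% of the 19505 genes in either direction, and the lowest adjusted p of any gene was 0.116. Without adjustment, 3 of the 5 members had a limma p below the threshold of 0.05, all higher, where 6.26% of all genes had such a p and 3.48% were higher. These p-values were 0.000841 for Col6a2, 0.00125 for Col6a1 and 0.0137 for Col6a5. Array 9 is not in these groups, but it enters the spread that the 4 groups share in the fit. Without it the limma adjusted p was 0.389 for Col6a2 and 0.403 for Col6a1. The unadjusted count was again 3 of 5 members, against 7.81% of all genes. Since Col6a5 passed the brightest background probe set on 0 of 20 arrays, the count among the chain genes above background was 2 of 3. A difference above 0 was found for 4 of 5 members and 48.8% of all genes. Ordered by p, Col6a2 was number 26 and Col6a1 number 35 of the 19505 genes. The 95% confidence intervals ran from 0.23 to 0.78 for Col6a2, from 0.21 to 0.77 for Col6a1 and from -0.09 to 0.80 for Col6a3.

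The size of these differences moved with the scaling of the arrays. With the deposited values Col6a1 stood at 0.81 (adjusted p = 0.0895) and Col6a2 at 0.83 (adjusted p = 0.0867), where the median of all genes stood at 0.25. With each array centred on its median they stood at 0.44 and 0.45, and with array brightness as a covariate at 0.39 and 0.50. Col6a5 ran from 0.23 with median centring to 0.86 with the covariate. Leaving out 1 array gave 0.41 to 0.55 for Col6a1 and 0.43 to 0.61 for Col6a2. For Col6a3 it gave 0.17 without wild-type vehicle array 16 and 0.54 without array 17.

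In the same comparison 6 of 6 mesothelial markers stood above 0, with a median difference of 0.44. Mesothelium is the cell layer that covers the lung and also makes matrix. Msln stood at 0.66 ± 0.24 (SE), Lrrn4 at 0.57 ± 0.22 and Upk3b at 0.53 ± 0.22 (adjusted p = 0.789 for each, limma). Wt1 stood at 0.35 ± 0.22 and was under the brightest background probe set on all arrays. The differences of Gpm6a (0.06 ± 0.17) and Upk1b (0.04 ± 0.14) were smaller than their SE. The mean level of the mesothelial markers ran from 6.61 to 7.41 on the wild-type vehicle arrays and from 6.92 to 7.57 on the Marfan vehicle arrays. Of the fibroblast markers 7 of 9 stood above 0, with a median of 0.06 and a mean level of 8.13 to 8.31 against 8.25 to 8.34; Scara5 was under the brightest background throughout. Smooth muscle and pericyte markers had a median of 0.12 (4 of 7 above 0; 7.53 to 7.86 against 7.62 to 8.09). Endothelial markers had a median of 0.18 (5 of 6 above 0; 10.05 to 10.37 against 10.08 to 10.58) and macrophage markers one of 0.15 (4 of 4; 7.61 to 7.92 against 7.74 to 8.58). Cardiac muscle markers had a median of -0.34 (1 of 5 above 0; 7.74 to 8.37 against 7.55 to 8.00). Adipose markers had a median of -0.20 (1 of 4 above 0, with Plin1 and Lep under the brightest background on all arrays). Alveolar type 1 markers had one of 0.07 (4 of 5) and alveolar type 2 markers one of 0.05 (4 of 6). The part of these cell types in the collagen VI difference was not tested. All 5 cartilage markers lay under the brightest background on every array, as did Acta1, Mylpf and Myh4 of skeletal muscle.

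In wild-type lungs, sildenafil was compared with vehicle. This comparison uses the same wild-type vehicle arrays as the first, so the 2 sets of differences are not independent. Col6a2 stood 0.45 ± 0.14 (SE) higher under sildenafil, a ratio of 1.36, and Col6a1 0.44 ± 0.14, a ratio of 1.35. Col6a5 stood at 0.39 ± 0.22, Col6a6 at 0.26 ± 0.20 and Col6a3 at 0.09 ± 0.23. The adjusted p (limma) was 0.380 for Col6a1 and for Col6a2, 0.607 for Col6a5, 0.744 for Col6a6 and 0.946 for Col6a3, and 0% of all genes were called in either direction. Without adjustment, 2 of 5 members were below 0.05, Col6a1 and Col6a2, against 9.1% of all genes. Their unadjusted limma p-values were 0.00562 and 0.00437. Without array 9, which enters through the shared spread, the limma adjusted p was 0.241 for Col6a1 and 0.219 for Col6a2. The unadjusted count was then 2 of 5 members, against 11.1% of all genes. All 5 differences lay above 0, as did those of 49.6% of all genes. Col6a5 and Col6a6 passed the brightest background probe set on 0 of 20 arrays, and the difference of Col6a3 was smaller than its SE. A rise of the whole family was thus not shown.

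With the deposited values the wild-type sildenafil differences were 0.80 for Col6a1 (adjusted p = 0.0698) and 0.81 for Col6a2 (adjusted p = 0.0668), beside 0.28 for the median gene. With array brightness as a covariate they were 0.32 and 0.44. Col6a5 was 0.73 with that covariate and turned to -0.018 with median centring. Leaving out wild-type vehicle array 16 or 17 moved Col6a3 to -0.099 or 0.27. Endothelial markers stood higher in 6 of 6 members, with a median of 0.27 and a mean level of 10.36 to 10.52 on the wild-type sildenafil arrays against 10.05 to 10.37 on the wild-type vehicle arrays. Fibroblast markers had a median of 0.03 (5 of 9 above 0; 8.29 to 8.35 against 8.13 to 8.31) and mesothelial markers one of 0.15 (4 of 6; 6.75 to 7.25 against 6.61 to 7.41). Smooth muscle and pericyte markers had a median of 0.06 (5 of 7; 7.75 to 7.96 against 7.53 to 7.86), with Pdgfrb the farthest from 0 at 0.59 ± 0.17 (SE). Macrophage markers had a median of -0.02 (2 of 4 above 0) and cardiac muscle markers one of -0.22 (1 of 5). Adipose markers had a median of -0.14 (1 of 4 above 0), alveolar type 1 markers one of 0.03 (3 of 5) and alveolar type 2 markers one of 0.02 (3 of 6). The part of these cell types in the collagen VI values was not tested.

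In Marfan lungs no chain gene was distinguished from 0 between sildenafil and vehicle. Col6a1 stood at 0.09 ± 0.14 (SE, 95% interval -0.21 to 0.38), Col6a2 at 0.03 ± 0.14 (-0.26 to 0.32) and Col6a3 at -0.10 ± 0.22 (-0.56 to 0.37). The dim genes stood at -0.27 ± 0.21 (Col6a5) and 0.10 ± 0.20 (Col6a6). All 5 had a limma adjusted p of 0.857 or more, and 0 of 5 had an unadjusted p under 0.05, against 6.71% of all genes; 0% were called. Differences above 0 numbered 3 of 5, and 48.4% over all genes. Without array 9 the values were 0.07 for Col6a1, 0.09 for Col6a2, 0.0035 for Col6a3, -0.26 for Col6a5 and 0.19 for Col6a6. The intervals reach past 0.3 for Col6a1 and Col6a2, so that differences of that size in Marfan lungs were not excluded.

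Between the genotypes under sildenafil, Col6a1 stood at 0.14 ± 0.15 (SE, 95% interval -0.17 to 0.45), Col6a2 at 0.09 ± 0.15 (-0.21 to 0.40) and Col6a3 at 0.17 ± 0.24 (-0.32 to 0.66). Col6a5 stood at -0.12 ± 0.23 and Col6a6 at -0.23 ± 0.21. Every member had a limma adjusted p of 1.00, and 0 of 5 had an unadjusted p under 0.05, against 3.89% of all genes; 0% were called. Differences above 0 numbered 3 of 5, and 48.7% over all genes. Without array 9 Col6a1 stood at 0.13, Col6a2 at 0.15, Col6a3 at 0.27, Col6a5 at -0.11 and Col6a6 at -0.14.

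The interaction asked whether the difference made by sildenafil depended on the genotype. It was below 0 for all 5 members, where 49.6% of all genes lay above 0: -0.66 ± 0.30 (SE) for Col6a5, -0.42 ± 0.20 for Col6a2, -0.35 ± 0.20 for Col6a1, -0.18 ± 0.32 for Col6a3 and -0.16 ± 0.28 for Col6a6. Without adjustment Col6a5 and Col6a2 were 2 of 5 members below 0.05, against 4.47% of all genes. Their unadjusted limma p-values were 0.0396 and 0.0478. Col6a5 lay at the background, so that among the 3 chain genes above it the count was 1 of 3, Col6a2. Without array 9 the unadjusted p was 0.0831 for Col6a2 and 0.0482 for Col6a5, which left 1 of 5 members below 0.05, against 4.33% of all genes. Over all genes no member passed (limma adjusted p = 0.984 for Col6a1, Col6a2 and Col6a5, 0.986 for Col6a3 and Col6a6), and 0% of genes were called. A smaller effect in Marfan than in wild-type lungs was therefore not shown for any chain gene. Without array 9 the interaction stood at -0.36 for Col6a1, -0.36 for Col6a2, -0.08 for Col6a3 and -0.65 for Col6a5. For Col6a6 it stood at -0.07 without array 9 and at 0.028 with median centring. The scaling moved the others as well. Col6a5 stood at -0.29 with median centring and at -0.97 with the brightness covariate. With the deposited values Col6a1 stood at -0.66, Col6a2 at -0.72 and Col6a3 at -0.53, where the median gene stood at -0.24, and with the covariate Col6a1 stood at -0.25.

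**Figure D3:**
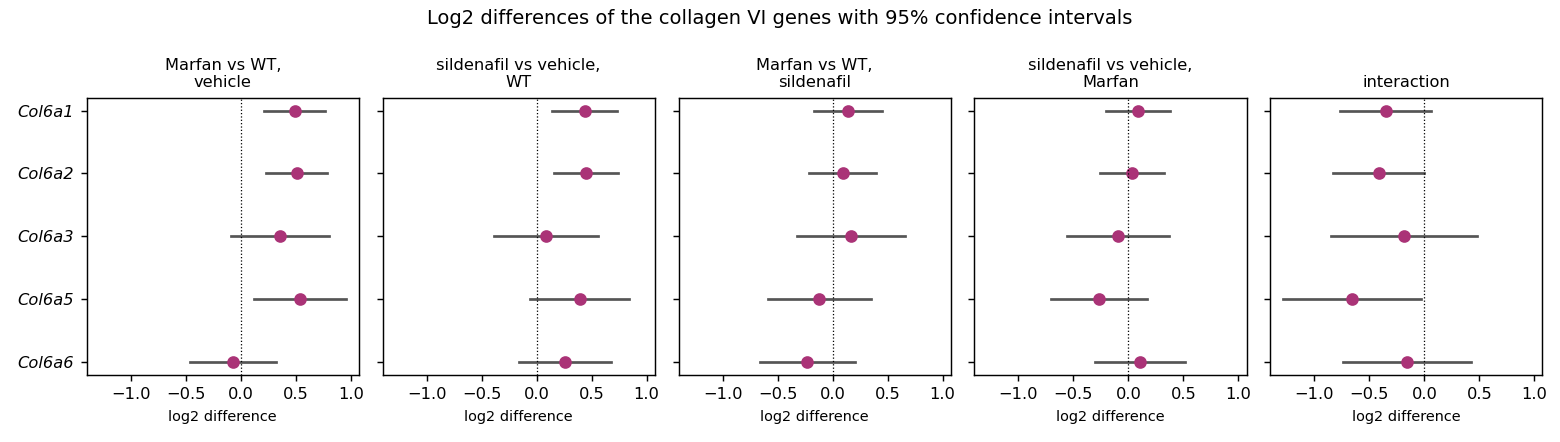
Log2 differences (points) and 95% confidence intervals (lines) of the 5 collagen VI genes in the 4 comparisons of 2 groups and in the interaction; the dotted line marks 0. The intervals of Col6a1 and Col6a2 lie above 0 in both comparisons against wild-type vehicle and span 0 in the comparisons under sildenafil and within Marfan lungs.

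Averaged over both treatments, Marfan lungs stood 0.32 ± 0.10 (SE) higher for Col6a1 and 0.30 ± 0.10 for Col6a2 (limma adjusted p = 0.918 for both), 0.26 ± 0.16 for Col6a3, 0.21 ± 0.15 for Col6a5 and -0.15 ± 0.14 for Col6a6. The first pair had an unadjusted p under 0.05, against 5.35% of all genes. Averaged over both genotypes, sildenafil stood 0.26 ± 0.10 higher for Col6a1 (limma adjusted p = 0.330) and 0.24 ± 0.10 for Col6a2 (adjusted p = 0.367), the 2 of 5 members with an unadjusted p under 0.05, against 10.9% of all genes. Col6a6 stood at 0.18 ± 0.14, Col6a5 at 0.06 ± 0.15 and Col6a3 at -0.0045 ± 0.16. Both averages contain the wild-type vehicle arrays on 1 side, and 0% of genes were called in either. Without array 9 the genotype averages were 0.31 for Col6a1, 0.33 for Col6a2, 0.31 for Col6a3, 0.21 for Col6a5 and -0.11 for Col6a6, and those of sildenafil were 0.25, 0.27, 0.045, 0.066 and 0.22 in the same order. With the deposited values the genotype averages were 0.48 for Col6a1 and 0.47 for Col6a2 (limma adjusted p = 0.436 for both), beside 0.13 for the median gene. Those of sildenafil were then 0.47 for Col6a1 (limma adjusted p = 0.125) and 0.45 for Col6a2 (adjusted p = 0.124), beside 0.16 for the median gene.

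Since α1 and α2 are needed in equal amounts, the array-by-array log2 difference between chain genes was also compared between groups, in 12 exact two-sided permutation tests over pairs of Col6a1, Col6a2 and Col6a3. Col6a1 minus Col6a2 changed by -0.02 from wild-type to Marfan vehicle lungs and by -0.01 from vehicle to sildenafil in wild-type lungs. The widest gap was that of Col6a2 minus Col6a3 under sildenafil in wild-type lungs, 0.36 (exact p = 0.124, adjusted p = 0.931 over the 12 tests). Col6a1 minus Col6a3 changed by 0.35 there (exact p = 0.333) and by 0.14 from wild-type to Marfan vehicle lungs (exact p = 0.654). Leaving out 1 array gave 0.28 to 0.49, 0.20 to 0.55 and 0.0056 to 0.34 for these changes in turn. Without array 9 Col6a1 minus Col6a2 changed by -0.019 under sildenafil in Marfan lungs and by -0.025 between the genotypes under sildenafil. No chain gene was thus shown to differ more than another, and the adjusted p was 0.931 or more in all 12 tests.

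Within groups, no pair of chain genes passed adjustment, and the highest correlations from array to array were those of Col6a2 with Col6a3 and with Col6a1. After group means were removed, Col6a2 and Col6a3 had Pearson's r = 0.71 over 20 arrays (permutation p = 0.00681, adjusted p = 0.0681 over 10 pairs) and Spearman's rho = 0.49 (permutation p = 0.0530, adjusted p = 0.265). Without arrays 17 and 20, the farthest from the median in Col6a2, r was 0.40. Leaving out the extremes of a gene narrows its range, which can itself lower r. The drop therefore does not show how far the relation rested on these arrays. Arrays were left out by the first gene of each pair only, so that array 16, among the farthest in Col6a3, was kept. Col6a1 and Col6a2 had r = 0.58 (permutation p = 0.0279, adjusted p = 0.140) and rho = 0.50 (permutation p = 0.0531, adjusted p = 0.265), and r = 0.52 without arrays 15 and 18. For Col6a1 and Col6a3 r was 0.20 (permutation p = 0.528, adjusted p = 0.660) and rho 0.13 (permutation p = 0.636, adjusted p = 0.909), with r = 0.29 without arrays 15 and 18. Of the 5 members set against array brightness in the same way, Col6a5 had the relation farthest from 0, r = -0.47 (permutation p = 0.0630, adjusted p = 0.315) and rho = -0.53 (permutation p = 0.0386, adjusted p = 0.193), with r = -0.40 without arrays 10 and 13. Without array 9 r was 0.68 for Col6a2 and Col6a3, 0.63 for Col6a1 and Col6a2, 0.23 for Col6a1 and Col6a3 and -0.55 for Col6a5 and array brightness.

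**Figure D4:**
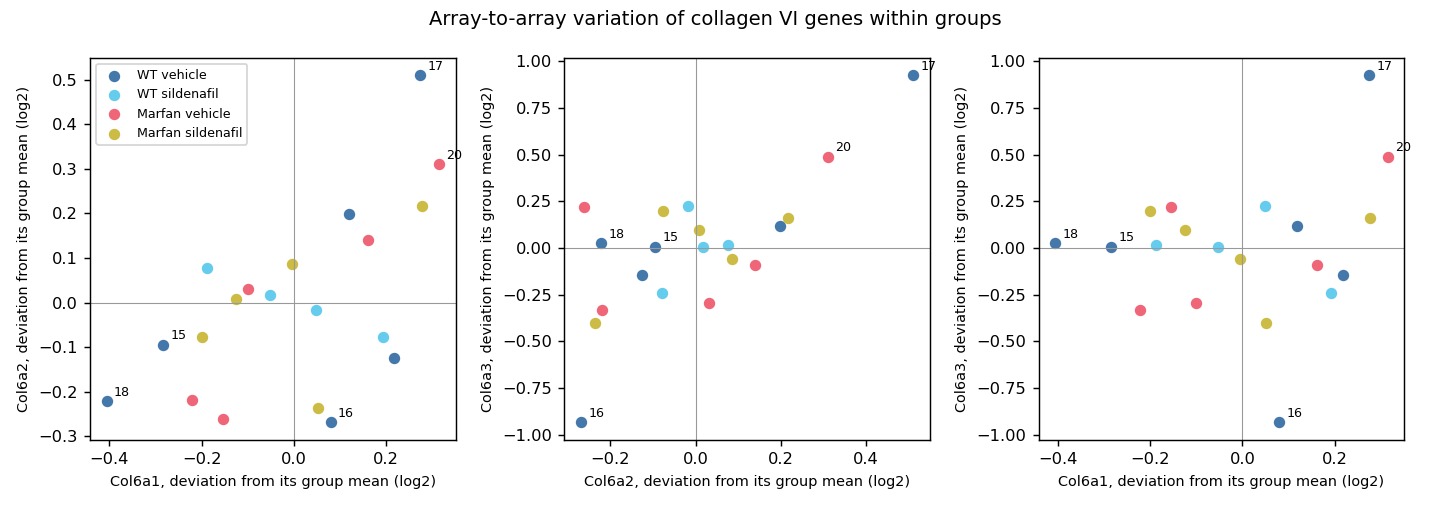
Deviation of each array from its group mean, in log2 units, for 3 pairs of chain genes; each point is 1 of 20 arrays, coloured by group, with arrays 15 to 18 and 20 numbered. Arrays 17 and 20 lie at the upper right of the Col6a2 and Col6a3 plot (r = 0.71), and the Col6a1 and Col6a3 plot shows little slope (r = 0.20).

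The genes with the pattern most like each bright chain gene were sought by Pearson's r over the 20 arrays among 9576 genes in the brighter 50%, as a description without a test. For Col6a1 these were Samd4b, an RNA-binding translational regulator (r = 0.92), Sgsh, a lysosomal enzyme of heparan sulfate breakdown (0.90), Ubqln2, a ubiquitin-binding shuttle protein (0.88), the sorting receptor gene Sort1 (0.85) and Ogdh, a mitochondrial dehydrogenase (0.85). For Col6a2 they were Lrrc8c, a subunit of volume-regulated anion channels (r = 0.85), Atl3, which shapes the endoplasmic reticulum (0.84), the laminin γ1 gene Lamc1 (0.82), the splicing factor gene Prpf8 (0.81) and Aebp1, a collagen-binding matrix protein (0.81). For Col6a3 they were Tln1, which links integrins to actin (r = 0.87), Fbrs (0.86), Myo5b, a motor of vesicle transport (0.86), the Notch ligand gene Jag1 (0.86) and Aff4, a scaffold of transcription elongation (0.84). No gene was in the first 5 of more than 1 of these chain genes. With group means removed, 2 of the 5 were again among the first 5 for Col6a1, 1 for Col6a2 and 4 for Col6a3. All these points share the same arrays, array 9 included, and array scaling enters each of them.

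The other genes through which collagen VI is made, bound and cut were then followed. In Marfan against wild-type vehicle lungs, 0 members of any of the 6 lists below passed over all genes, and the median of all genes stood at 0.00. Receptors of collagen VI stood above 0 in 5 of 5 members analysed, with a median of 0.15. Cspg4, the NG2 proteoglycan of pericytes, stood at 0.61 ± 0.23 (SE), Itga2, the integrin α2 subunit, at 0.17 ± 0.11, Antxr1, an anthrax toxin receptor that binds collagen VI, at 0.15 ± 0.11 and Itgb1, the integrin β1 subunit, at 0.11 ± 0.10. Itga1 and Itga10 were not analysed here. Matrix partners stood above 0 in 9 of 12 members, with a median of 0.20. The counts of this list, here and below, include Matn1 and Matn3, which were under the brightest background probe set on all arrays. Hspg2, the basement membrane proteoglycan perlecan, stood at 0.66 ± 0.22, Fn1, fibronectin, at 0.62 ± 0.21, Fmod, a collagen-binding proteoglycan, at 0.61 ± 0.24 and Vwf, von Willebrand factor, at 0.38 ± 0.18.

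Proteases that cut collagen VI or its precursors stood above 0 in 5 of 6 members, with a median of 0.28. The gelatinase genes Mmp2 and Mmp9 stood at 0.49 ± 0.16 (SE) and 0.43 ± 0.18, Mmp14, which is anchored in the cell membrane, at 0.40 ± 0.21 and the procollagen protease gene Bmp1 at 0.14 ± 0.10. Genes of collagen folding, modification and export stood above 0 in 13 of 19 members, with a median of 0.10. Colgalt2, which adds galactose to collagen, stood at 0.42 ± 0.25, Sec24d, of the vesicles that carry collagen from the endoplasmic reticulum, at 0.24 ± 0.12, the prolyl hydroxylase subunit gene P4ha2 at 0.23 ± 0.13 and Crtap, of another prolyl hydroxylase complex, at 0.20 ± 0.10. Plod3 and Fkbp10 were not analysed here.

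Among other collagens, the fibril-forming chains stood above 0 in 5 of 7 members, with a median of 0.24. Col3a1 stood at 0.41 ± 0.17 (SE), Col1a2 at 0.24 ± 0.11, Col1a1 at 0.23 ± 0.12 and the dim Col11a1 at 0.27 ± 0.21. The counts of this list, here and below, include Col5a1 and Col11a1, which were under the brightest background probe set on all arrays. Collagen IV chains of the basement membrane stood above 0 in 6 of 6 members, with a median of 0.21. Of these Col4a2 stood at 0.53 ± 0.19, Col4a1 at 0.28 ± 0.16, Col4a5 at 0.22 ± 0.18 and Col4a4 at 0.19 ± 0.17. Without adjustment, genes with a p under 0.05 and a higher value numbered 1 of 5 receptors, 4 of 12 matrix partners, 2 of 6 proteases, 0 of 19 folding genes, 2 of 7 fibril-forming chains and 1 of 6 collagen IV chains, beside 3.48% of all genes.

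In wild-type lungs under sildenafil the same lists had medians of 0.19 (receptors, 5 of 5 above 0), 0.15 (matrix partners, 9 of 12), 0.17 (proteases, 5 of 6), 0.08 (folding genes, 14 of 19), 0.02 (fibril-forming chains, 4 of 7) and 0.17 (collagen IV chains, 6 of 6). Of the genes named above only some are given here, each above its list median. Mmp14 stood at 0.54 ± 0.23 (SE), Fmod at 0.55 ± 0.26, Itga2 at 0.37 ± 0.12, Vwf at 0.47 ± 0.19 and Cspg4 at 0.24 ± 0.24. Being from the high side of their lists, these values do not describe the lists, for which the medians and counts are given. An unadjusted limma p under 0.05 with a higher value was found for 1 of 5 receptors, 3 of 12 matrix partners and 1 of 6 proteases. The count was 0 of 19 folding genes, where 1 was lower, 0 of 7 fibril-forming chains and 0 of 6 collagen IV chains. Over all genes 9.1% had such a p in either direction. In Marfan lungs under sildenafil the medians were 0.10 (receptors, 4 of 5), 0.00 (matrix partners, 6 of 12), 0.07 (proteases, 3 of 6), -0.03 (folding genes, 8 of 19), 0.12 (fibril-forming chains, 5 of 7) and -0.12 (collagen IV chains, 1 of 6). Between the genotypes under sildenafil the fibril-forming chains stood above 0 in 7 of 7 members (median 0.24, Col3a1 0.61 ± 0.19), the proteases in 5 of 6 (median 0.19), the receptors in 3 of 5 (0.04), the folding genes in 11 of 19 (0.03), the matrix partners in 5 of 12 (-0.03) and the collagen IV chains in 2 of 6 (-0.14). No list member passed over all genes in these comparisons. Array 9 is in both comparisons with Marfan sildenafil lungs, and some list values moved without it, an alternative added after seeing the data. Without it the medians under sildenafil in Marfan lungs were 0.15 (receptors, 4 of 5 above 0), -0.03 (matrix partners, 5 of 12), 0.02 (proteases, 3 of 6), -0.04 (folding genes, 8 of 19), 0.13 (fibril-forming chains, 5 of 7) and 0.06 (collagen IV chains, 5 of 6), so that the collagen IV median changed sign. Between the genotypes under sildenafil they were 0.20 (fibril-forming chains, 7 of 7, Col3a1 0.55 ± 0.19), 0.06 (proteases, 5 of 6), 0.16 (receptors, 4 of 5), 0.04 (folding genes, 12 of 19), 0.04 (matrix partners, 7 of 12) and 0.04 (collagen IV chains, 5 of 6), where the medians of matrix partners and collagen IV chains changed sign.

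**Figure D5:**
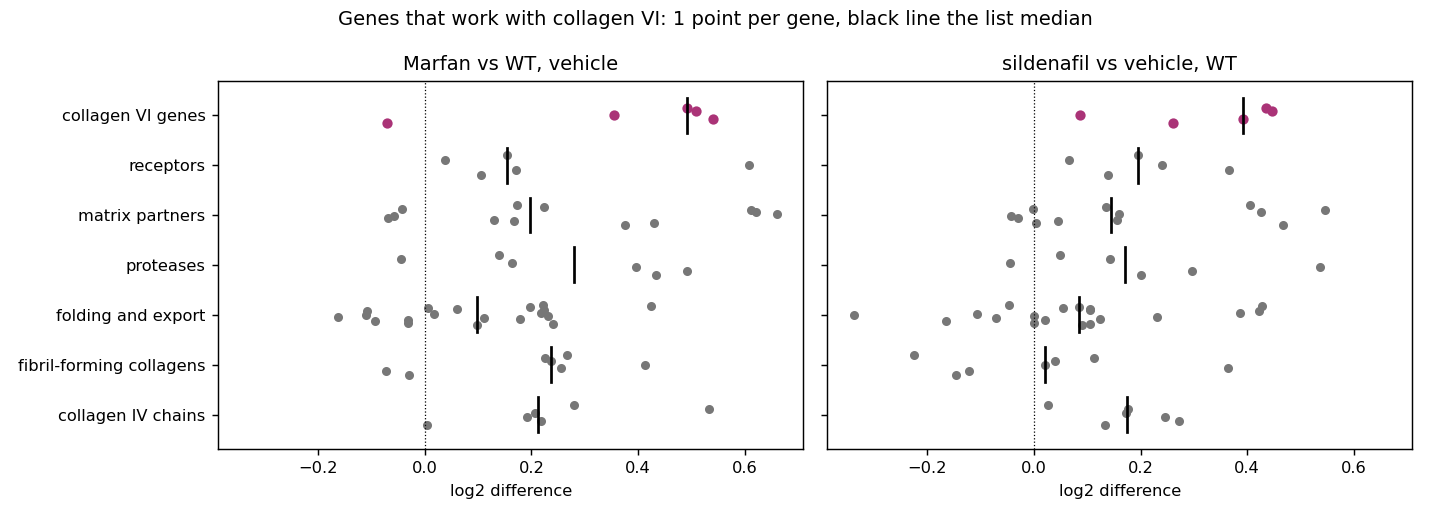
Log2 differences of the 5 collagen VI genes (purple) and of the genes of 6 related lists (grey), 1 point per gene, in Marfan against wild-type vehicle lungs and in sildenafil against vehicle wild-type lungs, which share their wild-type vehicle arrays; black lines are list medians. The fibril-forming collagens have a median of 0.24 on the left and 0.02 on the right.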

How the data were processed

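RNA from whole lung (700 pg per sample, integrity number above 8.5, per the labels' protocols) was hybridised to Affymetrix arrays. The deposited log2 values come from Affymetrix Expression Console with RMA, per the submitters' processing notes; the sources used here give no versions and no genome build. Of 22206 transcript probe sets, 19572 had 1 gene symbol in the platform annotation, which left 19505 genes at the probe set with the highest mean. Because array medians differed, the 20 arrays were quantile-normalized. The 4 groups were fitted together with limma 3.58.1 (lmFit, then eBayes allowing a variance trend; R 4.3.3). Each of 7 comparisons was adjusted by Benjamini-Hochberg over all genes, with a threshold of 0.05; p-values are two-sided. The code was tested on simulated arrays. Chain differences and correlations (100000 permutations within groups) used scipy 1.17.1.

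The members and gene lists were chosen with earlier results of these data known. All 5 members were named in every comparison, up to 4 genes of each list by the smallest p under vehicle, and the 5 genes with the highest r for each member above background, leaving out predicted genes. Promoter sequences are from RefSeq (GRCm38.p6), where all 5 members matched by symbol. The number of arrays limits the precision. Alternatives were the deposited values, median centring, covariates for array brightness or 3 Y-linked genes, other variance and array weights, filters and left-out arrays. The gene mutated in Marfan syndrome was not analysed here.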

Additional observations from a re-analysis of the deposited data

How the results depend on the processing

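No collagen VI gene passed the threshold of 0.05 under any alternative run, and Col6a1 and Col6a2 kept their direction in every alternative of the 2 comparisons with wild-type vehicle. No paired analysis was possible because the running numbers of the samples do not repeat across groups. Depth is not defined for arrays, and the signal over background limits Col6a5 and Col6a6. The counts of genes called, 0 as reported in all 7 comparisons, became 5 with the deposited values, 1 with array weights and 2 without Marfan sildenafil array 9 in Marfan against wild-type vehicle lungs (0 to 1 leaving out each array of the groups compared in turn, which array 9 is not in; the ranges below are taken in the same way). For the averaged genotype they became 2 with the deposited values and 5 with array weights (0 to 2 leaving out each array in turn). For averaged sildenafil they became 3 with the deposited values, 68 with array weights, 10 among the brighter 50% of genes and 74 without array 9 (0 to 74 leaving out each array in turn, 25 without array 10). Signs turned for the following differences, none of which passed the threshold. Col6a6 in Marfan against wild-type vehicle became 0.12 with the deposited values (-0.20 to 0.0090 leaving out arrays), and its interaction 0.028 with median centring (-0.28 to 0.037). Col6a5 under sildenafil in wild-type lungs became -0.018 with median centring, its averaged sildenafil value -0.16 (-0.0081 to 0.14), and between genotypes under sildenafil it ran from -0.28 to 0.0089. Col6a3 for averaged sildenafil became 0.21 with the deposited values, 0.084 with the brightness covariate, 0.0045 with the Y-linked covariate, 0.062 with array weights and 0.045 without array 9 (-0.098 to 0.088). Leaving out arrays, Col6a3 ran from -0.099 to 0.27 under sildenafil in wild-type lungs, from -0.18 to 0.026 in Marfan lungs (0.0035 without array 9) and from -0.37 to 0.0025 for the interaction, and Col6a2 from -0.034 to 0.11 under sildenafil in Marfan lungs. With the deposited values, r between Col6a1 and Col6a2 was 0.81 (permutation, adjusted p = 0.00660) and between Col6a2 and Col6a3 0.71 (adjusted p = 0.0378), both past the threshold; r turned to 0.047 for Col6a1 and Col6a5, 0.14 for Col6a1 and Col6a6 and 0.081 for Col6a2 and Col6a5, and with median centring to 0.076 and 0.19 for the pairs with Col6a5. Leaving out each array for the chain differences, and array 9 for the gene lists, was added after seeing the data. Col6a1 minus Col6a2 ran from -0.064 to 0.052 (genotype, vehicle), -0.041 to 0.14 (genotype, sildenafil), -0.10 to 0.077 (sildenafil, wild-type) and -0.019 to 0.087 (sildenafil, Marfan), and Col6a1 minus Col6a3 from -0.14 to 0.11 (genotype, sildenafil). The cause was not tested.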
